A study of Mus musculus with 4 samples.

Results

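Imprinted genes are genes that mouse cells read mainly from the copy inherited from 1 parent, and 44 of them were followed in embryonic stem cells (ESCs) depleted of Cnot1. The members were named individually from mouse imprinted clusters, with earlier results of these data known. They were looked up by gene symbol among the 50559 genes listed in the count table. Of the 44, 43 were listed under their own symbol, and Nespas was listed as Gnasas1, which RefSeq gives as a synonym. RNA-seq was available for 4 libraries of the E14 mouse ESC line, which in this study carried a tdTomato transgene under the MERVL promoter and was grown on gelatin with leukemia inhibitory factor. Cells were transfected with an siRNA against Cnot1 (siCnot1, 2 libraries) or with a non-targeting siRNA (siNT, 2 libraries), each at 150 nM, and collected 48 h after the first transfection. CNOT1 holds together CCR4-NOT, the main complex that shortens poly(A) tails of mRNAs, and the study asked how its loss bears on the entry of ESCs into a totipotent-like state. Which of the study's Cnot1 siRNAs was used for these libraries was not given in the sources used here.

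An imprinted cluster is controlled by a stretch of DNA that is methylated in the egg or in the sperm, and that mark decides in the embryo which parental copy is read. Clusters often pair protein-coding genes of one parental copy with a long noncoding RNA of the other, and many members control growth of the fetus and the placenta. ESCs are derived from the early embryo, where the marks survive a wave of demethylation with the help of ZFP57, ZFP445 and the TRIM28 complex. Several members, such as Ascl2, Cd81, Tssc4 and Asb4, are imprinted mainly in the placenta or in single tissues, and Igf2r is read from both copies in undifferentiated ESCs. The counts summed both parental copies, so the parental copy given beside each gene is background and was not measured.

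Library totals lay between 32135824 and 32557440 counts, and 3 counts corresponded to 0.0921 to 0.0934 CPM. Across tested genes, log2 CPM correlated at 0.988 and 0.989 within the groups and at 0.976 to 0.977 between them. Cnot1 itself read 913 and 986 normalized CPM in the siNT libraries and 185 and 192 in the siCnot1 libraries. It fell to 19.8% of the control level (log2 fold change -2.33 ± 0.06 SE, adjusted p = 2.37e-18, edgeR quasi-likelihood test), so the targeted transcript moved as the labels state. Of the 8 ESC markers, which include Pou5f1, Nanog and Sox2, all were detected, and 6 fell and 0 rose at an adjusted p under 0.05. Of all tested genes, 14.7% were lower and 15.0% higher at the same threshold. The summed level of the ESC markers was 6827 and 6494 normalized CPM in siNT and 5412 and 5655 in siCnot1. CPM scales each library to the same total, and normalized CPM here uses the library total after TMM scaling.

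Enough counts for a test were present for 38 of the 44 imprinted genes, of which 37 reached the filter in both siNT libraries and 1, Asb4, only in the siCnot1 libraries. With adjusted p under 0.05 as the call, 10 rose and 8 fell. Of all 18144 tested genes, 15.0% were called higher and 14.7% lower, 29.7% in either direction, beside 26.3%, 21.1% and 47.4% of the tested imprinted genes. The median log2 fold change was 0.18 over the tested imprinted genes and 0.0084 over all tested genes. The tested imprinted genes were also more abundant, with a median of 4.201 log2 CPM against 3.583 over all tested genes. Under the call rule of the study's methods, which asks for an unadjusted p of at most 0.05 and a log2 change of 1 or more in size, Slc22a18, Cdkn1c and Phlda2 were higher and Peg12 was lower. These 4 made up 10.5% of the tested imprinted genes, beside 7.98% of all tested genes (6.18% higher and 1.8% lower). In 29 of the 38 (76.3%) both siCnot1 libraries lay on the same side of both siNT libraries, which held for 63.9% of all tested genes. With library totals in place of TMM, which moved the median of all genes to 0.12, 15 imprinted genes rose and 6 fell. Of all tested genes, 3999 rose and 1563 fell with library totals. Each fit that left out a library called fewer imprinted genes and also fewer of all tested genes. The loss of calls in those fits was therefore not particular to the imprinted genes.

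**Figure D1:**
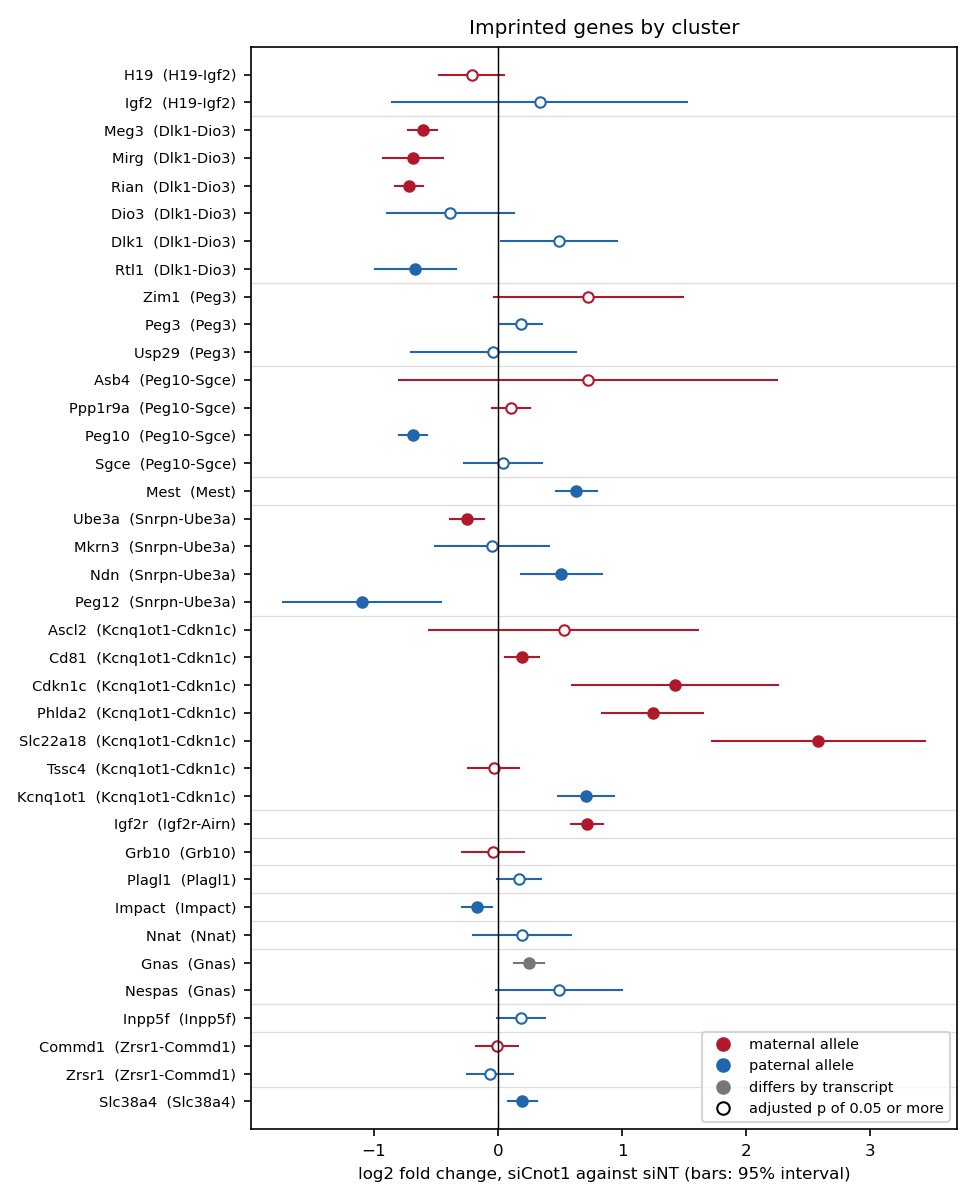
The log2 fold change of each of the 38 tested imprinted genes, siCnot1 against siNT, with its 95% interval from the edgeR fit. Genes are ordered by cluster and colored by the parental copy listed for each, which was not measured. Filled points had an adjusted p under 0.05: 8 lie to the left of 0, 4 of them in the Dlk1-Dio3 cluster, and 10 to the right, 5 of them in the Kcnq1ot1-Cdkn1c cluster.

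The largest block of RNA among the imprinted genes came from the Dlk1-Dio3 cluster on chromosome 12, where the maternal copy gives the noncoding RNAs Meg3, Rian and Mirg and the paternal copy gives the mRNAs Dlk1, Rtl1 and Dio3. The maternal RNAs are read as a long unit that hosts snoRNAs in Rian and many miRNA hairpins in and around Mirg. RefSeq places 111 mature miRNAs between the start of Meg3 and the end of Mirg in GRCm38.p6, with 102 different seeds (bases 2 to 8). Only 9 of those seeds are carried by more than 1 of them. Below are mature sequences from hairpins that lie in an exon of Meg3 or Mirg, with 2 examples from the hairpins opposite an exon of Rtl1. They are shown, with the seed in capitals, because they are what this maternal unit is known to encode besides its long RNAs. The first pair lies at chr12:109563710-109563731 and chr12:109563744-109563765 in an exon of Meg3.
mmu-miR-770-5p: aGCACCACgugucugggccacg
mmu-miR-770-3p: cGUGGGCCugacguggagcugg
mmu-miR-412-5p: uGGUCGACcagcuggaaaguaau
mmu-miR-412-3p: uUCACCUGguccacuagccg
mmu-miR-369-5p: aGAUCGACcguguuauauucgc
mmu-miR-369-3p: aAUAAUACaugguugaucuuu
mmu-miR-410-5p: aGGUUGUCugugaugaguucg
mmu-miR-410-3p: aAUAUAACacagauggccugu
mmu-miR-127-5p: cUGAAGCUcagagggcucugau
mmu-miR-127-3p: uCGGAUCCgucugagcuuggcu
mmu-miR-136-5p: aCUCCAUUuguuuugaugaugg
mmu-miR-136-3p: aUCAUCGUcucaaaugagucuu
The miR-412, miR-369 and miR-410 hairpins lie in an exon of Mirg, between chr12:109743303 and chr12:109743784. The miR-127 and miR-136 hairpins lie on the plus strand opposite an exon of Rtl1, between chr12:109592854 and chr12:109595387. No seed was shared among the 12, and outside them miR-410-5p shares its seed with miR-494-5p of the same cluster. Poly(A)+ libraries do not measure mature miRNAs. The 60 hairpins listed between Meg3 and Mirg held 50 and 61 counts in all in siNT and 46 and 38 in siCnot1. Only 23 of them held any count, which the counting rule set in part. Of 944 genes wholly within exons of their own strand and 389 wholly opposite exons, 0 held a count. The hairpins printed above lie in or opposite exons, so these totals say nothing of their level.

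All 3 maternal RNAs of the cluster fell. Rian, the host of a large snoRNA array, read 521 and 537 normalized CPM in siNT and 326 and 317 in siCnot1. Both siCnot1 libraries lay far below both siNT libraries, and the log2 fold change was -0.72 ± 0.05 SE (adjusted p = 1.58e-09, edgeR). Meg3, a noncoding RNA that binds Polycomb proteins and is often silenced in cultured stem cells, read 317 and 302 normalized CPM in siNT and 204 and 202 in siCnot1. The groups did not overlap, and Meg3 fell by 0.61 on the log2 scale (SE 0.06, adjusted p = 2.98e-08, edgeR). Mirg, the host of miRNAs at the far end of the unit, read 21.3 and 20.0 normalized CPM in siNT and 12.2 and 13.4 in siCnot1. It fell by 0.69 on the log2 scale (SE 0.12, adjusted p = 8.94e-05, edgeR), again without overlap between the groups. Their 95% intervals overlapped, at -0.83 to -0.61 for Rian, -0.72 to -0.49 for Meg3 and -0.93 to -0.45 for Mirg. Summed, the maternal RNAs held 26734 and 26931 counts in siNT and 18149 and 17809 in siCnot1, or 0.0827% and 0.0827% of the siNT libraries and 0.0565% and 0.0549% of the siCnot1 libraries. Each of the 3 calls held in every fit that left out a library. Of the exon bases listed for Meg3, 33.1% lie opposite those of Rtl1, where reads were counted for neither gene.

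Of the paternal mRNAs of the cluster, 1 fell and the others were not called. Rtl1, a gene derived from a retrotransposon and needed in the placenta, read 10.7 and 9.79 normalized CPM in siNT and 6.75 and 6.16 in siCnot1. The log2 fold change was -0.67 ± 0.16 SE (adjusted p = 0.00239, edgeR) with no overlap between the groups, and the call was lost without siNT replicate 1 (adjusted p = 0.0869) and without siCnot1 replicate 2 (adjusted p = 0.0541). Of the exon bases listed for Rtl1, 21.3% lie in exons of the opposite strand, among them Meg3 and miRNA hairpins. The counts ignored strand, so sense RNA of Rtl1 and the maternal RNA antisense to it cannot be told apart. Dlk1, which encodes a membrane protein of the Notch ligand family, read 3.15 and 3.25 normalized CPM in siNT and 4.18 and 4.81 in siCnot1. Both siCnot1 libraries of Dlk1 lay above both siNT libraries, with a log2 fold change of 0.49 ± 0.23 SE that was not called (adjusted p = 0.11, edgeR). With library totals in place of TMM the change of Dlk1 was 0.60 with an adjusted p of 0.0493. Dio3, a deiodinase that inactivates thyroid hormone, read 4.73 and 3.67 normalized CPM in siNT and 3.79 and 2.63 in siCnot1, and the groups overlapped (log2 fold change -0.39 ± 0.25 SE, adjusted p = 0.262, edgeR).

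The Kcnq1ot1-Cdkn1c cluster on distal chromosome 7 held 5 of the 10 imprinted genes that rose and none that fell. There the paternal copy is read into the long noncoding RNA Kcnq1ot1, which silences the neighboring growth-restraining genes on the same copy, so that these are read from the maternal copy. Slc22a18, an organic cation transporter, held 13 and 12 counts in siNT and 98 and 64 in siCnot1. This was the largest change among the tested imprinted genes, a log2 fold change of 2.58 ± 0.41 SE (5.99-fold, 95% interval 1.73 to 3.44 on the log2 scale, adjusted p = 4.67e-05, edgeR), from a level near the count filter. Cdkn1c, which encodes the cyclin-dependent kinase inhibitor p57, held 15 and 40 counts in siNT and 94 and 65 in siCnot1. The siNT libraries of Cdkn1c differed widely from each other, although neither reached the siCnot1 libraries, and the log2 fold change was 1.43 ± 0.40 SE (adjusted p = 0.00873, edgeR). Phlda2, a small protein that limits growth of the placenta, held 144 and 125 counts in siNT and 414 and 271 in siCnot1 (log2 fold change 1.25 ± 0.20 SE, adjusted p = 3.8e-05, edgeR). Its siCnot1 libraries lay apart from each other, at 12.4 and 8.10 normalized CPM, and both lay above siNT at 4.63 and 3.99.

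Kcnq1ot1, known to be read from the other parental copy than these genes, rose as well. It read 17.1 and 18.3 normalized CPM in siNT and 31.0 and 26.7 in siCnot1, without overlap (log2 fold change 0.71 ± 0.11 SE, adjusted p = 2.88e-05, edgeR). Kcnq1, the potassium channel gene that Kcnq1ot1 runs antisense to, held only 0 to 5 counts per library. Kcnq1ot1 lies within the span of Kcnq1, and only 0.15% of its listed exon bases lie opposite exons of Kcnq1. The counts appear to have ignored strand, so unspliced RNA of Kcnq1 cannot be told apart from Kcnq1ot1 here. Cd81, a broadly made tetraspanin, rose slightly, from 89.9 and 92.2 normalized CPM in siNT to 108 and 99.9 in siCnot1 (log2 fold change 0.19 ± 0.07 SE, adjusted p = 0.0284, edgeR). Its call was lost without each library in turn, with adjusted p from 0.0736 to 0.351, with the replicate number as a block (0.0532), with no count filter (0.135) and with DESeq2 (0.0501). Cd81 shares 40.8% of its listed exon bases with Tssc4, and reads in shared bases were counted for neither. Tssc4, a splicing factor, read 33.4 and 32.7 normalized CPM in siNT and 29.5 and 35.1 in siCnot1, and the groups overlapped. Ascl2, a transcription factor of the trophoblast, held 26 and 12 counts in siNT and 29 and 30 in siCnot1, and its interval ran from -0.56 to 1.62 on the log2 scale.

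The calls of the cluster differed in how far they rested on single libraries. Slc22a18 was called in every fit that left out a library, with log2 fold changes from 2.24 to 2.85. Kcnq1ot1 lost its call without siNT replicate 1 (adjusted p = 0.0521). Phlda2 lost its call without siNT replicate 1 (adjusted p = 0.065) and without siNT replicate 2 (adjusted p = 0.0674). Cdkn1c lost its call without siNT replicate 1 (log2 fold change 0.89, adjusted p = 0.208), without siCnot1 replicate 1 (1.14, adjusted p = 0.193) and without siCnot1 replicate 2 (1.66, adjusted p = 0.0568), and with no count filter (adjusted p = 0.135). Summed, Slc22a18, Phlda2 and Cdkn1c held 172 and 177 counts in siNT and 606 and 400 in siCnot1, a small part of the RNA of the imprinted genes.

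**Figure D2:**
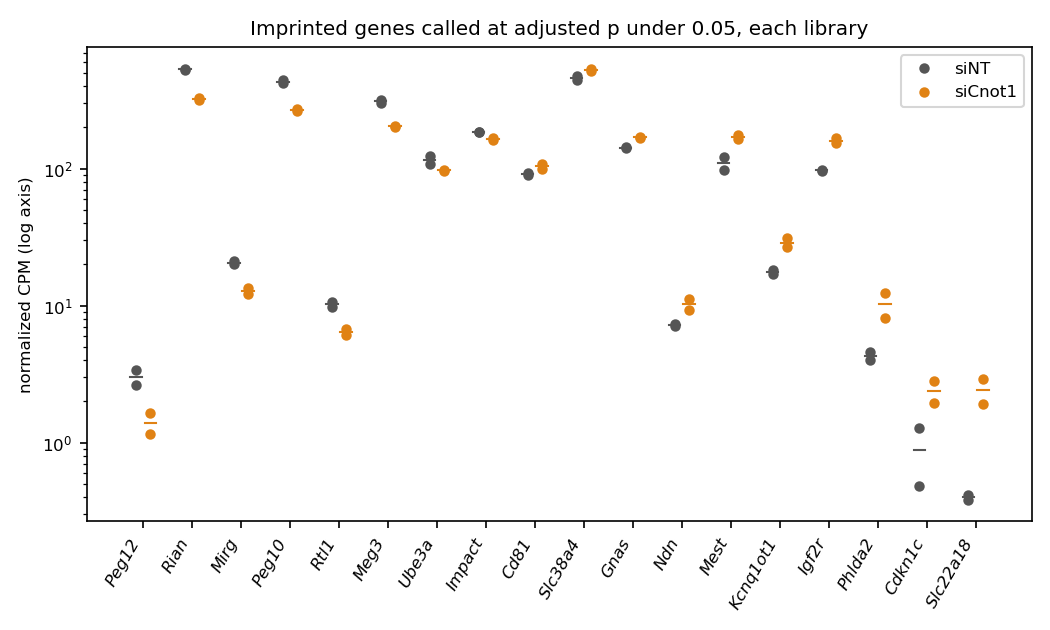
Normalized CPM on a log axis in each of the 4 libraries for the 18 imprinted genes with an adjusted p under 0.05, ordered by fold change from left to right, with a bar at each group's mean. Rian and Peg10 start above 400 and move down as tight pairs, whereas Slc22a18 and Cdkn1c start at 0.400 and 0.879 on average and their points within a group lie farther apart.

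The Peg10-Sgce cluster on proximal chromosome 6 held a strong decrease of a single gene. Peg10, a retrotransposon-derived gene of the paternal copy that is needed for the placenta, read 423 and 441 normalized CPM in siNT and 263 and 274 in siCnot1. Its siCnot1 libraries lay far below siNT, with a log2 fold change of -0.69 ± 0.06 SE (adjusted p = 4.19e-09, edgeR) that was called in every fit. Sgce, which encodes the sarcoglycan epsilon of muscle and brain and starts next to Peg10 on the opposite strand, read 9.71 and 8.36 normalized CPM in siNT and 9.23 and 9.32 in siCnot1. The groups overlapped, and the 95% interval of Sgce, -0.27 to 0.35 on the log2 scale, did not reach the change of Peg10. Ppp1r9a, which encodes the actin-binding protein neurabin, read 66.5 and 63.7 normalized CPM in siNT and 71.2 and 68.7 in siCnot1 (log2 fold change 0.10 ± 0.07 SE, adjusted p = 0.306, edgeR). With library totals its change was 0.21 with an adjusted p of 0.0292. Asb4, a substrate receptor of a ubiquitin ligase, held 8 and 6 counts in siNT and 14 and 11 in siCnot1, with a 95% interval of -0.80 to 2.25 on the log2 scale.

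Mest, a paternally read gene of the α/β-hydrolase family that also lies on chromosome 6, rose. It read 97.2 and 123 normalized CPM in siNT and 163 and 177 in siCnot1, and the lowest siCnot1 library lay above the highest siNT library. The log2 fold change was 0.63 ± 0.08 SE (adjusted p = 2.06e-06, edgeR), and it was called in every fit, between 0.47 and 0.81 when a library was left out. Mest hosts miR-335, which is shown with its seed in capitals because its host moved the other way from the hosts of the Dlk1-Dio3 cluster.
mmu-miR-335-5p: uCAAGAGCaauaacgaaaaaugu
mmu-miR-335-3p: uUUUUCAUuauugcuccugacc
The arms lie at chr6:30741314-30741336 and chr6:30741354-30741375 in GRCm38.p6. As above, the mature miRNA was not measured.

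The Snrpn-Ube3a cluster on central chromosome 7, the region whose loss causes Prader-Willi and Angelman syndromes in humans, changed in both directions. Peg12, a paternally read gene related to the Wnt regulator Frat1, held 105 and 83 counts in siNT and 39 and 55 in siCnot1. The groups did not overlap, and the log2 fold change was -1.10 ± 0.31 SE (adjusted p = 0.00856, edgeR). Ndn, which encodes the MAGE-family protein necdin, held 228 and 223 counts in siNT and 311 and 377 in siCnot1 and rose (log2 fold change 0.51 ± 0.16 SE, adjusted p = 0.0167, edgeR). Ube3a, a ubiquitin ligase listed with the maternal copy, read 108 and 123 normalized CPM in siNT and 96.7 and 97.4 in siCnot1. It fell by 0.25 on the log2 scale (SE 0.07, adjusted p = 0.00661, edgeR), and its siNT libraries lay farther apart than its siCnot1 libraries. Mkrn3, a ubiquitin ligase linked to the timing of puberty, read 5.75 and 3.73 normalized CPM in siNT and 4.36 and 4.81 in siCnot1, and the siCnot1 libraries lay between those of siNT.

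None of the calls in this cluster held without every library. Peg12 lost its call without siNT replicate 1 (adjusted p = 0.168), siNT replicate 2 (0.0704) and siCnot1 replicate 1 (0.12), and with no count filter (0.0653). Ndn lost its call without siNT replicate 1 (0.153), siNT replicate 2 (0.159) and siCnot1 replicate 2 (0.225), with no count filter (0.0982) and with DESeq2 (0.0502). Ube3a lost its call without siNT replicate 2 (0.164), siCnot1 replicate 1 (0.109) and siCnot1 replicate 2 (0.0982), with library totals (0.11) and with no count filter (0.0904).

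The remaining members of this cluster could not be tested, in part through the counting. Snurf held 0 counts in each library, and all of its exon bases lie in exons of Snrpn and Snhg14 on the same strand. Snrpn, a spliceosomal protein gene, held 1 and 3 counts in siNT and 2 and 1 in siCnot1, and 72.3% of its exon bases are shared in the same way. Among the 944 genes of the whole table that lie wholly within exons of their own strand, 0 held a count, so the value of Snurf says nothing of its level. The counts of Snrpn can come only from the exon bases that it does not share. Magel2, another MAGE-family gene, held 0 and 0 counts in siNT and 8 and 12 in siCnot1. The siCnot1 mean of Magel2 was 3.11 times a floor of 3 counts per siNT library, with no counting error allowed for that mean. Magel2 was not tested.

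Among imprinted genes outside these clusters, Igf2r, the receptor that removes IGF2 and sorts lysosomal enzymes, had the smallest adjusted p of the genes that rose. It read 96.4 and 98.3 normalized CPM in siNT and 167 and 154 in siCnot1, with a wide gap between the groups (log2 fold change 0.72 ± 0.06 SE, adjusted p = 1.47e-08, edgeR), and it was called in every fit. Its antisense partner Airn, a noncoding RNA of the paternal copy, held 0 and 6 counts in siNT and 2 and 10 in siCnot1 and was not tested. Gnas, which encodes the stimulatory G protein subunit and related transcripts of either parental copy, read 143 and 141 normalized CPM in siNT and 167 and 171 in siCnot1. It rose by a small amount (log2 fold change 0.25 ± 0.06 SE, adjusted p = 0.00251, edgeR), and its call was lost without siNT replicate 1 (0.0667), siNT replicate 2 (0.0666) and siCnot1 replicate 2 (0.075). Nespas, listed as Gnasas1 and antisense to the first exons of the Gnas locus, held 110 and 78 counts in siNT and 156 and 128 in siCnot1 (log2 fold change 0.49 ± 0.25 SE, adjusted p = 0.14, edgeR). Its siCnot1 libraries lay above those of siNT, but the change was not called.

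Slc38a4, an amino acid transporter of the paternal copy, was the second most abundant imprinted gene per length in siNT. It read 442 and 474 normalized CPM in siNT and 534 and 517 in siCnot1 and rose by a small amount (log2 fold change 0.20 ± 0.06 SE, adjusted p = 0.00884, edgeR). Its call was lost without each library in turn, with adjusted p from 0.0505 to 0.172, and with no count filter (0.0746). Impact, which restrains the translation kinase GCN2, read 184 and 186 normalized CPM in siNT and 161 and 168 in siCnot1, and its groups did not overlap. It fell by 0.17 on the log2 scale (SE 0.06, adjusted p = 0.0306, edgeR). The call of Impact was lost without each library in turn, with adjusted p from 0.0964 to 0.238, with library totals (0.447), upper-quartile scaling (0.0551), no count filter (0.0794) and the replicate block (0.0578).

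The best known imprinted pair, H19 and Igf2, was not called. H19, a maternally read noncoding RNA, read 16.4 and 14.2 normalized CPM in siNT and 13.7 and 12.6 in siCnot1 (log2 fold change -0.21 ± 0.13 SE, adjusted p = 0.225, edgeR). Igf2, the paternally read growth factor, was near the filter at 13 and 18 counts in siNT and 26 and 16 in siCnot1, and its interval ran from -0.86 to 1.53 on the log2 scale. In the Peg3 cluster, the zinc finger gene Peg3 read 46.8 and 47.2 normalized CPM in siNT and 54.5 and 52.5 in siCnot1, without overlap and without a call (log2 fold change 0.19 ± 0.08 SE, adjusted p = 0.089, edgeR). Its neighbor Zim1, another zinc finger gene, read 1.03 and 1.15 in siNT and 2.15 and 1.46 in siCnot1, also without a call (log2 fold change 0.73 ± 0.37 SE, adjusted p = 0.144, edgeR). The other genes that were tested and not called, the deubiquitinase gene Usp29, Grb10, the zinc finger gene Plagl1, the neuronatin gene Nnat, the phosphoinositide phosphatase gene Inpp5f, Zrsr1 and Commd1, had log2 fold changes between -0.07 and 0.19. Their 95% intervals on the log2 scale ran from -0.18 to 0.17 for the copper regulator Commd1, -0.25 to 0.12 for the splicing factor gene Zrsr1 and -0.29 to 0.21 for the insulin receptor adaptor Grb10. For Plagl1 and Inpp5f they lay mostly above 0, at -0.0045 to 0.34 and -0.0099 to 0.38. They were wider for Nnat, at -0.20 to 0.59, and for Usp29, at -0.70 to 0.63. Zrsr1 lies in an intron of Commd1 and is a processed copy of Zrsr2, and how reads with more than 1 match were counted was not given in the sources used here. Mcts2, a processed gene copy in an intron of H13, held 0 and 3 counts in siNT and 0 and 1 in siCnot1, with 75.5% of its exon bases shared with H13.

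Set by parental copy, the calls did not fall to one side. Of the 17 tested members listed with the maternal copy, 5 rose, 4 fell and 8 were not called. Their median log2 fold change was 0.10. The 17 include Igf2r, which is read from both copies in undifferentiated ESCs. They also include members imprinted mainly in the placenta or in single tissues, such as Ascl2, Cd81, Tssc4 and Asb4. Igf2r and Cd81 were among those that rose. The 4 that fell were Meg3, Rian and Mirg, all of the Dlk1-Dio3 cluster, and Ube3a, so most of them came from a single cluster. Of the 20 tested members listed with the paternal copy, 4 rose, 4 fell and 12 were not called, with a median of 0.18. Of all tested genes, 15.0% were called higher and 14.7% lower. Gnas, whose transcripts come from either copy, makes up the remainder. In the Kcnq1ot1-Cdkn1c cluster, genes known to be read from opposite copies rose together, among them Phlda2 and Kcnq1ot1. No difference between maternal and paternal members was tested, since members of a cluster share their control and are not replicates.

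The levels of the imprinted genes spanned a wide range, which is here given as normalized CPM per kb of exon. In siNT the order began with Rian at 148, Slc38a4 at 104, Peg10 at 64.8, Cd81 at 60.0 and Meg3 at 23.9 normalized CPM per kb. In siCnot1 Slc38a4 came first at 120, followed by Rian at 89.6, Cd81 at 68.6 and Peg10 at 40.3, so that Rian and Slc38a4 changed places, as did Peg10 and Cd81. The lowest tested members in siNT were Usp29 at 0.119, Igf2 at 0.0870 and Asb4 at 0.0645 normalized CPM per kb. Exon length in the table was the union of all listed exons, so genes with long unions such as Kcnq1ot1, Rtl1 and Mest rank low. The length also included bases shared with other genes, where reads were counted for neither gene. These made up 40.8% of the exon bases of Cd81 and 33.1% of those of Meg3, whose levels per kb are therefore understated. The order of Cd81 and Peg10 thus depends on the length used. The tested imprinted genes together took 0.278% and 0.287% of the counts in siNT and 0.279% and 0.276% in siCnot1. In normalized CPM they summed to 2886 and 2978 in the siNT libraries and to 2678 and 2675 in the siCnot1 libraries, without overlap, so this comparison turned on the scaling.

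**Figure D3:**
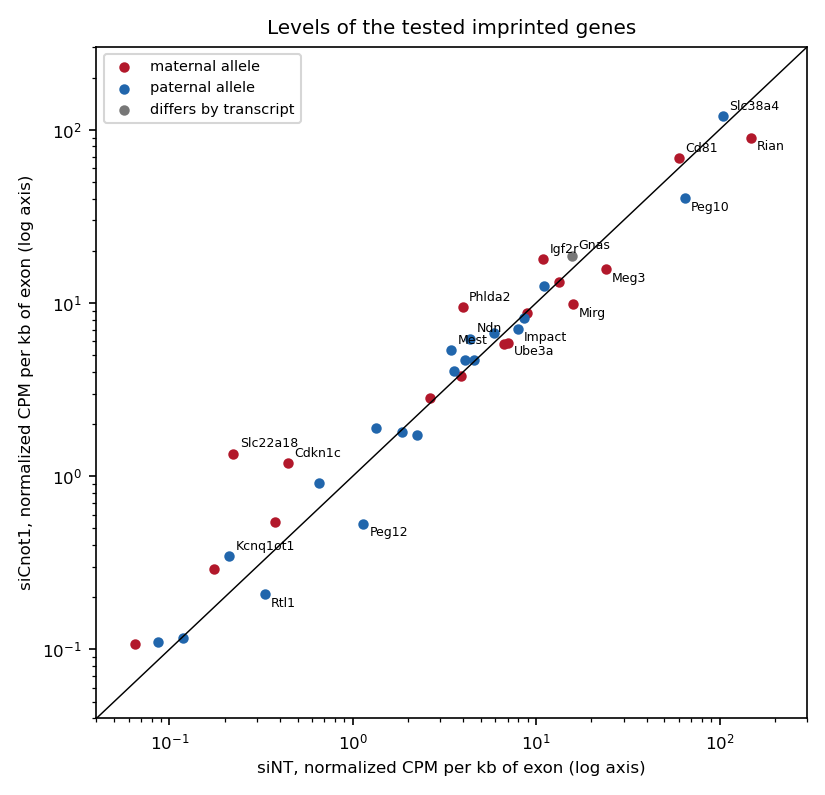
Mean level of each tested imprinted gene in siNT (x axis) and siCnot1 (y axis), in normalized CPM per kb of exon on log axes, colored by parental copy, with the line of equal level and the names of the genes called. Rian (148 and 89.6) and Peg10 (64.8 and 40.3) lie below the line at the high end, and Slc22a18 (0.224 and 1.35) lies farthest above it at the low end.

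Further imprinted genes outside the 44 also changed in both directions. Of 46 further imprinted genes written down as a list, 31 were tested, 10 rose and 3 fell, beside 15.0% higher and 14.7% lower of all tested genes, and the median log2 fold change was 0.16. Among those that rose were the retinoblastoma gene Rb1 (0.71 ± 0.10 SE, adjusted p = 1.2e-05, edgeR), the Argonaute gene Ago2 (0.49 ± 0.07 SE, adjusted p = 1.35e-05, edgeR) and the nucleosome assembly gene Nap1l5 (1.33 ± 0.28 SE, adjusted p = 0.000883, edgeR). Those that fell were the Polycomb-related gene Sfmbt2 (-0.78 ± 0.13 SE, adjusted p = 7.27e-05, edgeR), Copg2, a coatomer gene that overlaps Mest (-0.38 ± 0.07 SE, adjusted p = 0.000293, edgeR), and the signaling adaptor gene Gab1 (-0.22 ± 0.06 SE, adjusted p = 0.00637, edgeR). Mest and Copg2 moved in opposite directions, and 5.7% of the exon bases listed for Mest lie in exons of Copg2 on the opposite strand. The exons listed for Mest come to 31852 bases, and 6.3% of these are shared with Copg2os2 on the same strand. The counts appear to have ignored strand, so unspliced RNA of Copg2 that falls in exons listed for Mest cannot be told apart from Mest.

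The genes that set, keep or erase imprints fell more often than they rose. Of 26 such genes, all tested, 10 fell and 1 rose, beside 14.7% lower and 15.0% higher of all tested genes, their median log2 fold change was -0.12, and their summed level was 8180 and 8238 normalized CPM in siNT and 7305 and 7493 in siCnot1. The smallest adjusted p among those that fell belonged to the Polycomb gene Eed (-0.50 ± 0.06 SE, adjusted p = 3.47e-07, edgeR), the methyltransferase cofactor gene Dnmt3l (-0.35 ± 0.06 SE, adjusted p = 0.00014, edgeR) and the histone methyltransferase gene Ehmt2 (-0.35 ± 0.06 SE, adjusted p = 0.000196, edgeR). The gene that rose was Zfp445, a zinc finger protein that binds imprinted control regions (0.32 ± 0.06 SE, adjusted p = 0.00034, edgeR). With library totals in place of TMM, 7 of the 26 were called in place of 11. Zfp57, picked out after its values were seen because it binds the same regions, read 485 and 514 normalized CPM in siNT and was not called (log2 fold change 0.14 ± 0.05 SE, adjusted p = 0.058, edgeR).

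ZFP57 recognizes the letters TGCCGC when they are methylated, and promoter windows of the imprinted genes were searched for them on either strand. Windows of 300 bases, 250 before to 50 after each start, came from RefSeq in GRCm38.p6 and were found for 36 of the 44 genes. The letters occurred in 12 of the 54 windows of these genes (22.2%) and in 11.6% of all 32851 windows in the table. Snrpn and Snurf hold the same match, at chr7:60005184-60005213, which was counted for each of them. Among those of the 18 called genes that had a window, Meg3 and Mest held the letters. The stretches below show both, on the plus strand, with Plagl1 and Nnat as genes that were not called, and capitals mark GCGGCA, the same letters read from the other strand.
Meg3 promoter, chr12:109540794-109540823: gccaggggcactGCGGCAgatttttttttc
Mest promoter, chr6:30737971-30738000: aggaggggcgctGCGGCAggatgggcgggt
Plagl1 promoter, chr10:13090730-13090759: ctggcgtgttgcGCGGCAaagcccacggca
Nnat promoter, chr2:157560093-157560122: gccaccggggctGCGGCAttgcgcccagca
No methylation or binding was measured here, and a match of letters is a description.

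Markers of other cell types were low, and some of them moved with the treatment. Beside the calls below, 15.0% of all tested genes were called higher and 14.7% lower. The 7 fibroblast markers, which would mark feeder cells, summed to 8.94 and 12.2 normalized CPM in siNT and 13.4 and 12.8 in siCnot1, with Col3a1 at 0 in each library and 1 of 3 tested genes higher (Col1a1, 1.403 ± 0.28 SE, adjusted p = 0.000541, edgeR). The 7 primitive endoderm markers summed to 14.8 and 12.6 in siNT and 22.9 and 22.2 in siCnot1, where Dab2 (1.02 ± 0.18 SE, adjusted p = 0.000139, edgeR) and Pdgfra (1.02 ± 0.20 SE, adjusted p = 0.000436, edgeR) rose and 4 of the 6 tested were not called. The 7 trophoblast markers summed to 79.8 and 82.5 in siNT and 67.6 and 63.4 in siCnot1, most of it from Tfap2c, which ESCs also express, with Krt7 higher (2.52 ± 0.80 SE, adjusted p = 0.02, edgeR) and Tfap2c lower (-0.48 ± 0.08 SE, adjusted p = 8.75e-05, edgeR). The 7 germ layer markers summed to 16.7 and 17.7 in siNT and 16.87 and 16.97 in siCnot1, with T at 0 in each library, Neurod1 higher and Pax6 lower. The part of other cell types in the changes of imprinted genes such as Cdkn1c and Phlda2 was not tested. In bulk libraries fewer cells of a type and less RNA per cell cannot be told apart.

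Of the 18 called imprinted genes, 11 were called in every fit that used all 4 libraries: Meg3, Rian, Mirg, Rtl1, Peg10, Mest, Phlda2, Kcnq1ot1, Slc22a18, Igf2r and Gnas. Of these, Meg3, Rian, Mirg, Peg10, Mest, Slc22a18 and Igf2r, 7 genes, were also called when each library was left out in turn. No called gene changed direction in any of these fits.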

How the data were processed

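The authors prepared poly(A)+ RNA-seq libraries from 2 independent biological replicates per group, sequenced them on an Illumina instrument and deposited raw counts per gene, with no normalization and no pooling. Per the labels, the submitters' notes name fastp 0.19.4, HISAT2 2.2.1, DESeq2 1.40.2 and mm10. The deposited gene positions were not those of mm10 (1092 of 48908 shared symbols had the same start as in GRCm38.p6), so only positions from RefSeq are printed. The counter, its annotation and strand setting were not given in the sources used here. Of 389 genes whose exons all lie opposite exons of another gene, 0 held a count, beside 56.8% of 39872 genes with no shared exon base, so reads appear to have been counted without strand and dropped where genes share bases.

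The test was run in R 4.3.3 with edgeR 4.0.16 on the 18144 of 50559 genes that filterByExpr kept at its minimum count of 10 (TMM, quasi-likelihood test, Benjamini-Hochberg adjustment over all tested genes, condition as the only term). Means are over n = 2 libraries per group. SE was taken from the log2 fold change and the F statistic as their size over √F. The scripts were tested on simulated data. A floor of 3 counts covers counting error only.

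The members and the lists were chosen with earlier results of these data known. Values per library were given for each called gene, each gene with a log2 change of 1 or more in size and tested genes of their clusters, and at most 3 genes per direction were named from each other list. Alternatives were library totals, DESeq2 size factors or upper quartiles for scaling, a filter of 1 CPM in 2 libraries or none, the DESeq2 1.42.0 test, the replicate block, leaving out each library, and the call rule of the study.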

Additional observations from a re-analysis of the deposited data

How the results depend on the processing

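With 2 libraries per group, each fit that left out a library had 1 library in a group, which was assumed to vary like the other group. Over these fits the imprinted genes that rose numbered 3 to 7 in place of 10 and those that fell numbered 5 in each fit in place of 8. All tested genes numbered 743 to 1439 higher in place of 2719 and 871 to 1463 lower in place of 2668. Calls in the other lists numbered 4 to 6 of further imprinted genes in place of 13, 4 to 8 of genes that act on imprints in place of 11, and 4 to 10 of cell type markers in place of 13. The median log2 fold change of the imprinted genes ranged from 0.11 to 0.15 in place of 0.18. These fits have fewer samples.

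With no filter, 30308 genes were tested, and 6 imprinted genes rose and 5 fell, 1303 of all genes rose and 1450 fell, and 6 further imprinted genes and 8 markers were called. Under the call rule of the study 3 imprinted genes rose and 1 fell, and 1121 of all genes rose and 326 fell. Library totals moved the median of all genes from 0.0084 to 0.12 on the log2 scale. They gave 3999 higher and 1563 lower of all genes, 15 higher and 6 lower imprinted genes, 7 called genes that act on imprints, a median of 0.28 for the imprinted genes, and calls for Dlk1 and Ppp1r9a. Requiring at least 1 CPM in 2 libraries gave that median as 0.11. The cause was not tested.

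Changes near 0 reversed: with library totals Mkrn3 was 0.058 and Tssc4 was 0.073. Leaving out a library, Sgce ranged from -0.067 to 0.14, Mkrn3 from -0.33 to 0.29 and Tssc4 from -0.17 to 0.082. The cause was not tested.

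Replicate numbers 1 and 2 were shared by both groups, but libraries with the same number deviated from their group means with a correlation of only 0.011, so the numbers were not taken as pairs. With the replicate number as a block, 9 imprinted genes rose and 7 fell, beside 2524 higher and 2431 lower of all tested genes. Cd81 and Impact were no longer called with the block, and the change of Cnot1 stayed at -2.33. DESeq2 gave 8 higher and 8 lower imprinted genes, beside 2095 higher and 2362 lower of all tested genes. Kcnq1 and Airn, at 0 to 10 counts per library, could not be compared at this depth, and Snurf, Snrpn and Mcts2 share most or all of their exon bases with other genes.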
